A study of Mus musculus with 9 samples.

Results

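Cytosolic ribosomal proteins were measured as mRNA in endothelial cells (ECs) sorted from mouse lungs. Their genes were chosen by symbol (Rpl or Rps with a number, plus the stalk proteins and Rpsa, S6 kinases left out) and not by any measured value. The rule found 49 genes of the 18193 with a probe set that names 1 gene. Of these, 21 encode small-subunit proteins including Rpsa, 22 encode large-subunit and stalk proteins, and 6 are paralogs (Rpl22l1, Rpl39l, Rpl3l, Rpl7l1, Rps27l and Rps4l). The set does not cover the whole ribosome. A further 28 ribosomal protein symbols, Rplp1 among them, lay only on probe sets shared with other gene symbols.

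The ribosome builds proteins from mRNA, with a small subunit that reads the message and a large subunit that joins amino acids. Ribosomal protein mRNAs are among the most abundant in growing cells, and many begin with a run of pyrimidines at the 5′ end, the terminal oligopyrimidine (TOP) motif, through which mTOR signalling controls their translation. The transcription factor MYC is known to raise ribosome production during growth.

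ECs came from the lungs of NSG mice, an immunodeficient strain, and 3 arrays were made for each of 3 groups. The first group had lung metastases of MDA-MB-231-LM2 cells, a lung-tropic line of human breast cancer cells injected into a vein when the mice were 6 to 8 weeks old, and received DC101, an antibody that blocks VEGFR2, at 40 mg/kg on days 21 and 24 with harvest on day 25. The second group had the same metastases and received control rat IgG (metastatic IgG), and the third was healthy, age-matched and received control IgG (healthy IgG). The sort kept CD31-positive cells and removed those with GFP (carried by cancer cells), CD45, CD11b, EpCAM or CD140a/b. Replicates are labelled biological, but separate mice are not stated, so p-values measure the spread between arrays. A smaller share of cells of a type cannot be told apart from less mRNA per cell.

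Endothelial identity was clear on every array. The 10 endothelial markers averaged 13.48 to 13.60 on the log2 scale in metastatic DC101, 13.55 to 13.58 in metastatic IgG and 13.61 to 13.63 in healthy IgG, and Pecam1, the sorted marker CD31, averaged 14.16, 14.13 and 14.12 in the same order of groups. Single endothelial markers differed between metastatic IgG and healthy IgG. Emcn was called higher (0.53, adjusted p of 0.0341 by limma). The arrays did not overlap for 60% of the 10 markers, 1 higher and 5 lower in metastatic IgG, against 27.6% of all genes. Markers of other cells also moved with metastasis. The 10 lung epithelial markers averaged 8.81 to 9.01 in metastatic IgG and 9.20 to 9.84 in healthy IgG, with 5 called lower. The 6 measured of 8 erythrocyte and platelet markers averaged 8.29 to 8.41 in metastatic IgG and 8.96 to 9.15 in healthy IgG, with 2 called lower. Of the 10 macrophage and monocyte markers, 3 (the complement genes C1qa, C1qb and C1qc) were called higher, while the pan-leukocyte gene Ptprc averaged 8.33 in metastatic IgG and 9.01 in healthy IgG and was not called. Of the 9 fibroblast and mural markers, the collagen genes Col1a1 (1.85, adjusted p of 0.00761 by limma) and Col1a2 (1.29, 0.0234) were called higher and the proteoglycan gene Dcn (-1.05, 0.0466) lower, and 7 of 7 measured neutrophil markers were above 0 with none called. The Gapdh control probe sets gave a 3′ minus 5′ difference of 0.47 to 0.57 in metastatic IgG and 0.69 to 0.77 in healthy IgG. Those of Actb overlapped, with 0.01 to 0.09 in metastatic IgG and -0.11 to 0.09 in healthy IgG. The part of these differences in the results on ribosomal proteins was not tested.

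Pyrimidine runs near the annotated starts are shown for members described later. Bases from 20 before to 10 after the RefSeq start (assembly GRCm38.p6) are printed on the gene strand. The longest run of C and T is in capitals. Rpl12 starts within chr2:32961692-32961721 (plus strand), Rplp0 within chr5:115559447-115559476 (plus), Rpsa within chr9:120127746-120127775 (plus), Rpl22l1 within chr3:28805488-28805517 (plus), Rps10 within chr17:27635235-27635264 (minus), Rpl41 within chr10:128549159-128549188 (minus), Rpl13a within chr7:45128736-45128765 (minus) and Rplp2 within chr7:141447631-141447660 (plus).
Rpl12: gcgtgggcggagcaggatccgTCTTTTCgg
Rplp0: acgtcgTCTTCgggtttcgaggaccgcctg
Rpsa: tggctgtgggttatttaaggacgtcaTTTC
Rpl22l1: cgtgcgtgcggcgcaagcccgTTCTCTTCC
Rps10: acgctgcgccgcgcacgCCCCTTCCTTTCC
Rpl41: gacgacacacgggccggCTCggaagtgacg
Rpl13a: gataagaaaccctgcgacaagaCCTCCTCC
Rplp2: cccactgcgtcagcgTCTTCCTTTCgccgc

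The RefSeq table held 51 start windows for 43 of the 49 members, 7 of which had several starts. A C/T run of at least 8 bases lay in 19 of the 51 windows (37.3%), against 12.6% of 32851 windows of all genes. A run of at least 5 bases that covered the annotated start itself was found in 13 (25.5%), against 10.1% of all windows. In Rpl12 and Rpl22l1 the run began just after the annotated start, and in Rps10 it spanned it. Within the window the longest run was 3 bases in Rpl41, and the 5-base run of Rplp0 lay before the annotated start. The run of 4 bases in Rpsa reached the last base of the window, so its full length is not given. Starts used in these cells were not measured, so the windows do not show whether a gene has a TOP motif. Over the 300 bases from 250 before to 50 after the start, both strands searched, CCGGAAG (the core bound by ETS factors) was in 21 of 51 windows (41.2%), against 8.86% of all windows. CACGTG, the E-box bound by MYC with MAX, was in 5 (9.80%), against 7.15%, and AAGATGGC, the core bound by YY1, was in 4 (7.84%), against 2.75%. Several starts of 1 gene count as separate windows, and a match is a description of letters.

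Most of the 49 members sat at the top of the array's range. Their median level was 13.25 on the log2 scale, against 9.03 for all genes, and 30 of the 49 lay among the top 5% of genes. A level of 11 or more was found for 37 members, and 12 were under 11. The highest were Rpl13a (14.08 over the 9 arrays), also known for a role in interferon-dependent translational silencing, Rps7 (14.07), a small-subunit protein mutated in some Diamond-Blackfan anaemia, and Rps3 (14.02), which lines the mRNA entry channel. The highest value on any array among the probe sets that stand for the 18193 genes was 14.61. The lowest were Rpl37 (6.21), a zinc-binding large-subunit protein, Rps16 (6.41), a small-subunit protein, and Rpl39l (7.28), a paralog known from testis. Rpl37 and Rps16 each had a single probe set that named them alone, and their levels are those of that probe set. Probe sets that list Rpl37 or Rps16 with other symbols were brighter, up to 12.43 for Rpl37 (1434872_x_at) and 14.01 for Rps16 (1416404_s_at). Levels of different probe sets depend on probe sequence, so this order describes signals rather than numbers of transcripts.

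**Figure D1:**
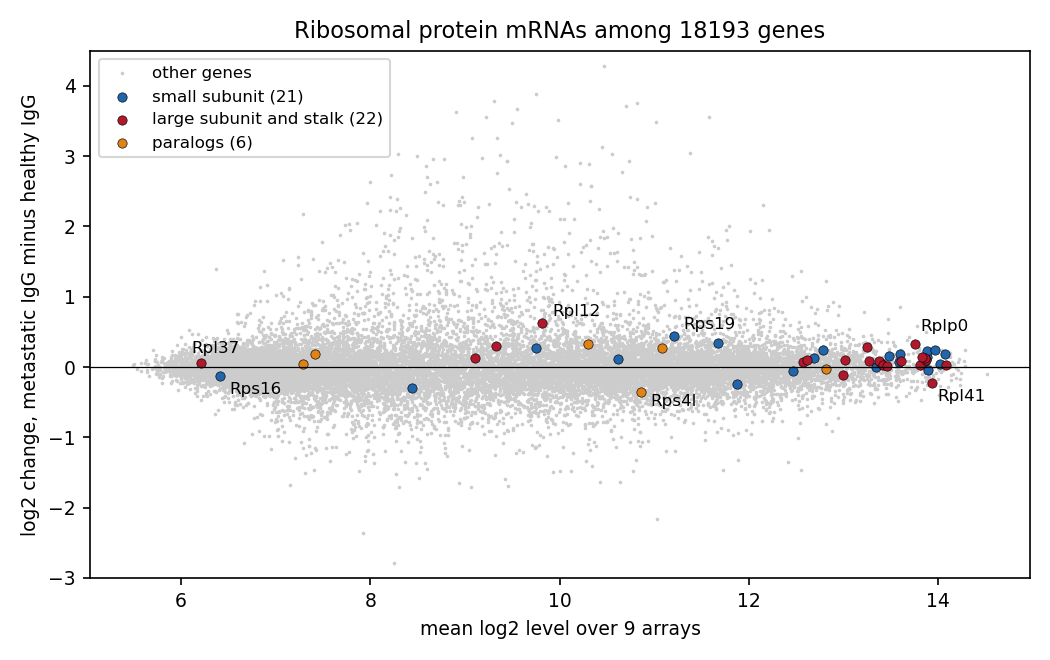
Mean log2 level over 9 arrays (x axis) against the log2 change of metastatic IgG minus healthy IgG (y axis) for 18193 genes, with the 49 ribosomal protein genes coloured by kind. Most members (37 of 49) sit at levels of 11 or more, and Rpl12 (level 9.82, change 0.62) stands highest among the 49. Of the members' changes, 38 of 49 lie within 0.25 of 0, against 12695 of the 18193 genes.

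Arrays of a group agreed more closely for ribosomal proteins, most of them bright, than for all genes. The median SD over 3 arrays was 0.132 for members and 0.171 for all genes in metastatic DC101, 0.0902 and 0.139 in metastatic IgG, and 0.0576 and 0.135 in healthy IgG. Bright genes varied less in general. At levels of 11 or more the medians were 0.0945 for members and 0.149 for all genes in metastatic DC101. They were 0.0796 and 0.0934 in metastatic IgG, and 0.0509 and 0.0875 in healthy IgG. The members moved together from array to array. DC101 replicate 2 was the highest of its group for 41 of 49 members (83.7%), against 39.7% of all genes, and DC101 replicate 3 was the lowest for 34, while it was also the lowest most often over all genes (41.9%). Metastatic IgG replicate 1 was the highest of its group for 32 members (65.3%, against 33.6% of all genes) and replicate 3 the lowest for 34 (against 33.3%). The median distance of the members from their own 9-array means was -0.07, 0.09 and -0.13 on the DC101 arrays, 0.12, 0.07 and -0.0035 on the metastatic IgG arrays, and -0.01, -0.02 and -0.06 on the healthy IgG arrays. DC101 replicate 2 thus lay among the metastatic IgG arrays, and the other DC101 arrays lay below every healthy IgG array. On DC101 replicates 1 to 3 the Gapdh 3′ minus 5′ difference had the same order, with 0.49, 0.60 and 0.35. So did the surfactant genes Sftpc (12.47, 13.36 and 11.84) and Sftpa1 (9.41, 10.65 and 8.61) of lung epithelium. The Actb control had the reverse order, with 0.07, 0.00 and 0.14. Among the 10 epithelial markers, Krt8 (8.41, 8.96 and 8.74), Krt18 (8.78, 9.05 and 9.20) and Scgb1a1 (10.73, 10.36 and 9.46) had other orders, and the rest had the members' order. The 10 epithelial markers averaged between 8.76 and 9.86 on these arrays. The part of these measures in the members' values was not tested.

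**Figure D2:**
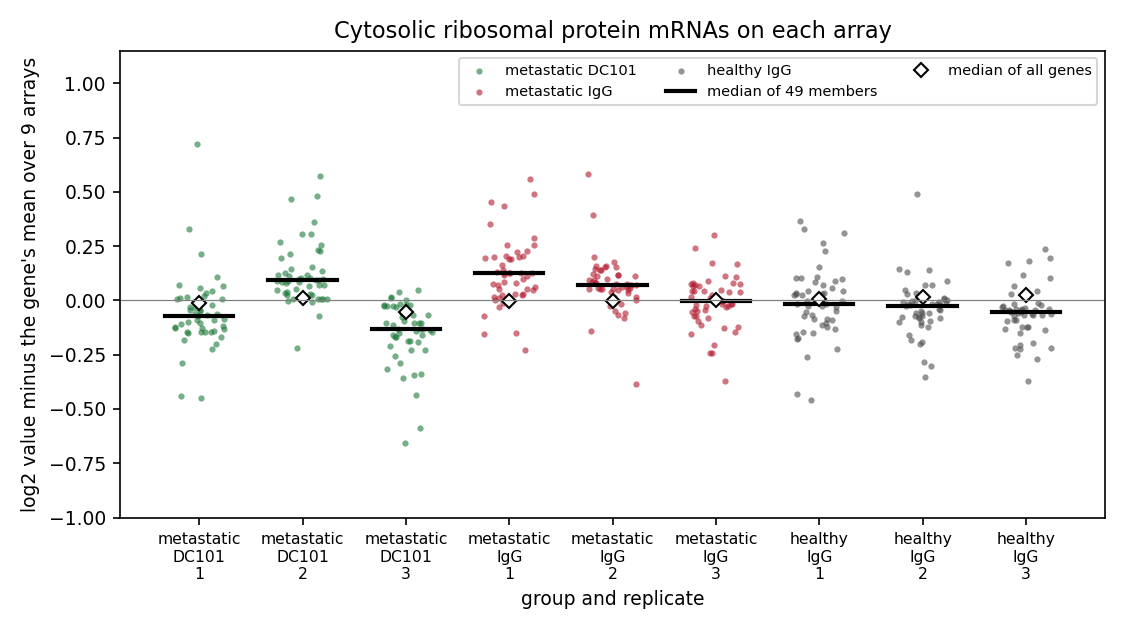
Distance of each of the 49 members (points) from its own mean over 9 arrays, on the log2 scale, for each array by group and replicate, with bars at the members' median and diamonds at the median of all genes. The members' median was 0.09 on DC101 replicate 2 and -0.13 on DC101 replicate 3, while the median of all genes stayed between -0.05 and 0.02 on every array.

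The first comparison asked how the metastatic lung changed these mRNAs under control IgG. Rpl12 was the single member called (limma, Benjamini-Hochberg adjusted p under 0.05 over 18193 genes), which is 2.04% of the members against 6.53% of all genes tested (3.93% higher and 2.60% lower). Small differences above 0 were common: 40 of 49 members had a higher mean in metastatic IgG (81.6%, against 45.1% of all genes) and 9 a lower one (against 54.9%), with a median log2 change of 0.10, against -0.02 for all genes. The 3 arrays of each group did not overlap for 19 members that were higher (against 13.0% of all genes) and 2 that were lower in metastatic IgG (against 14.7%), together 42.9% of the members, against 27.6% of all genes. At an unadjusted p under 0.05 the count was 9 members (18.4%), against 21.3% of all genes. The 95% interval of the log2 change lay within 0.5 of 0 for 38 of 49 members, against 10143 of all 18193 genes.

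Rpl12 encodes a large-subunit protein at the base of the stalk, where elongation factors dock. Its log2 values were 10.27, 10.21 and 10.06 in metastatic IgG, against 9.36, 9.54 and 9.78 in healthy IgG, with no overlap between the groups. By probe set 1435655_at, at a mean level of 9.82, it rose by 0.62 ± 0.13 (SE, n = 3 each) on the log2 scale. That is 1.54-fold, with an adjusted p of 0.0355 by limma. Without 1 array the adjusted p was 0.0296 when healthy IgG replicate 3 was left out and between 0.0688 and 0.108 when any other array of the 6 was, with changes of 0.53 to 0.73, so the call rested on nearly every array. With the replicate number as a block the adjusted p was 0.0996. Brighter probe sets that list Rpl12 with other symbols differed by less and were not called in a fit over all named probe sets. There, 1416026_a_at (level 11.49) differed by 0.43 (adjusted p of 0.116 by limma) and 1435725_x_at (level 13.12) by 0.27 (0.196).

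The other stalk proteins were measured at higher levels. Rplp0, the scaffold that carries the acidic stalk proteins, had log2 values of 13.93, 13.91 and 13.85 in metastatic IgG, against 13.59, 13.56 and 13.55 in healthy IgG. The groups were far apart compared with the spread within them, and the change was 0.33 ± 0.08 (SE, n = 3 each), with an adjusted p of 0.0597 by limma. Rplp2, an acidic stalk protein, had 12.84, 12.69 and 12.57 in metastatic IgG and 12.65, 12.54 and 12.60 in healthy IgG, which overlapped. The call of Rplp0 depended on the setting: an adjusted p of 0.000649 was obtained when the prior was allowed to follow the signal level, 0.0308 without any moderation and 0.0481 when dim genes were left out.

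That same intensity-dependent prior raised the count of members called to 11 of 49 higher and 1 of 49 lower. Of all genes under it, 5.41% and 4.36% were called (9.77% in all). The members' share called was thus above that of all genes under this prior. Under the constant prior it was below (2.04% against 6.53%). The 11 were Rplp0, Rpsa, Rps7, Rps3a1, Rpl10a, Rps4x, Rpl7, Rps2, Rpl6, Rps9 and Rpl12, and the 1 lower was Rpl41. Their changes were those given by the constant prior, from 0.13 for Rpl6, a large-subunit protein, to 0.62 for Rpl12, so the fits differed in variance only. Bright genes varied little between arrays here, with a median SD at levels of 11 or more of 0.0796 for members and 0.0934 for all genes in metastatic IgG, and of 0.0509 and 0.0875 in healthy IgG.

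Among small-subunit proteins, 16 of 21 had a log2 change above 0, with a median of 0.13, and none passed the test, against 6.53% of all genes (4 at an unadjusted p under 0.05, which is 19.0%, against 21.3%). Rps19, which is mutated in Diamond-Blackfan anaemia, had 11.70, 11.41 and 11.09 in metastatic IgG and 11.05, 10.86 and 10.94 in healthy IgG, a difference of 0.45 ± 0.16 with an adjusted p of 0.167 by limma. Rpsa, a small-subunit protein also known as the laminin receptor, had 14.22, 14.11 and 14.04 in metastatic IgG and 13.89, 13.87 and 13.87 in healthy IgG. Its difference of 0.24 ± 0.09 did not pass either, although the arrays did not overlap. Rps26, which contacts mRNA near the exit channel, had 12.24, 11.65 and 11.75 in metastatic IgG and 11.42, 11.66 and 11.56 in healthy IgG, with 1 array setting most of the difference of 0.34. In the other direction, Rps27, a zinc-finger protein, differed by -0.30 ± 0.14 and Rps10, another Diamond-Blackfan gene, by -0.24 ± 0.13, and in both the groups overlapped. Rps10 had 6 probe sets, and its value was 0.39 when only the plain probe set was kept.

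Among large-subunit and stalk proteins, 20 of 22 had a log2 change above 0, with a median of 0.09. Those below 0 were Rpl41, a very short basic peptide, and Rpl27a. Rpl41 had 13.95, 13.95 and 13.79 in metastatic IgG, against 14.17, 14.09 and 14.14 in healthy IgG, and the groups did not overlap. The difference was -0.23 ± 0.09 with an adjusted p of 0.198 by limma. Rpl7, a large-subunit protein, differed by 0.14 ± 0.08, and Rpl39, a small protein of the peptide exit tunnel, by 0.13 ± 0.15.

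**Figure D3:**
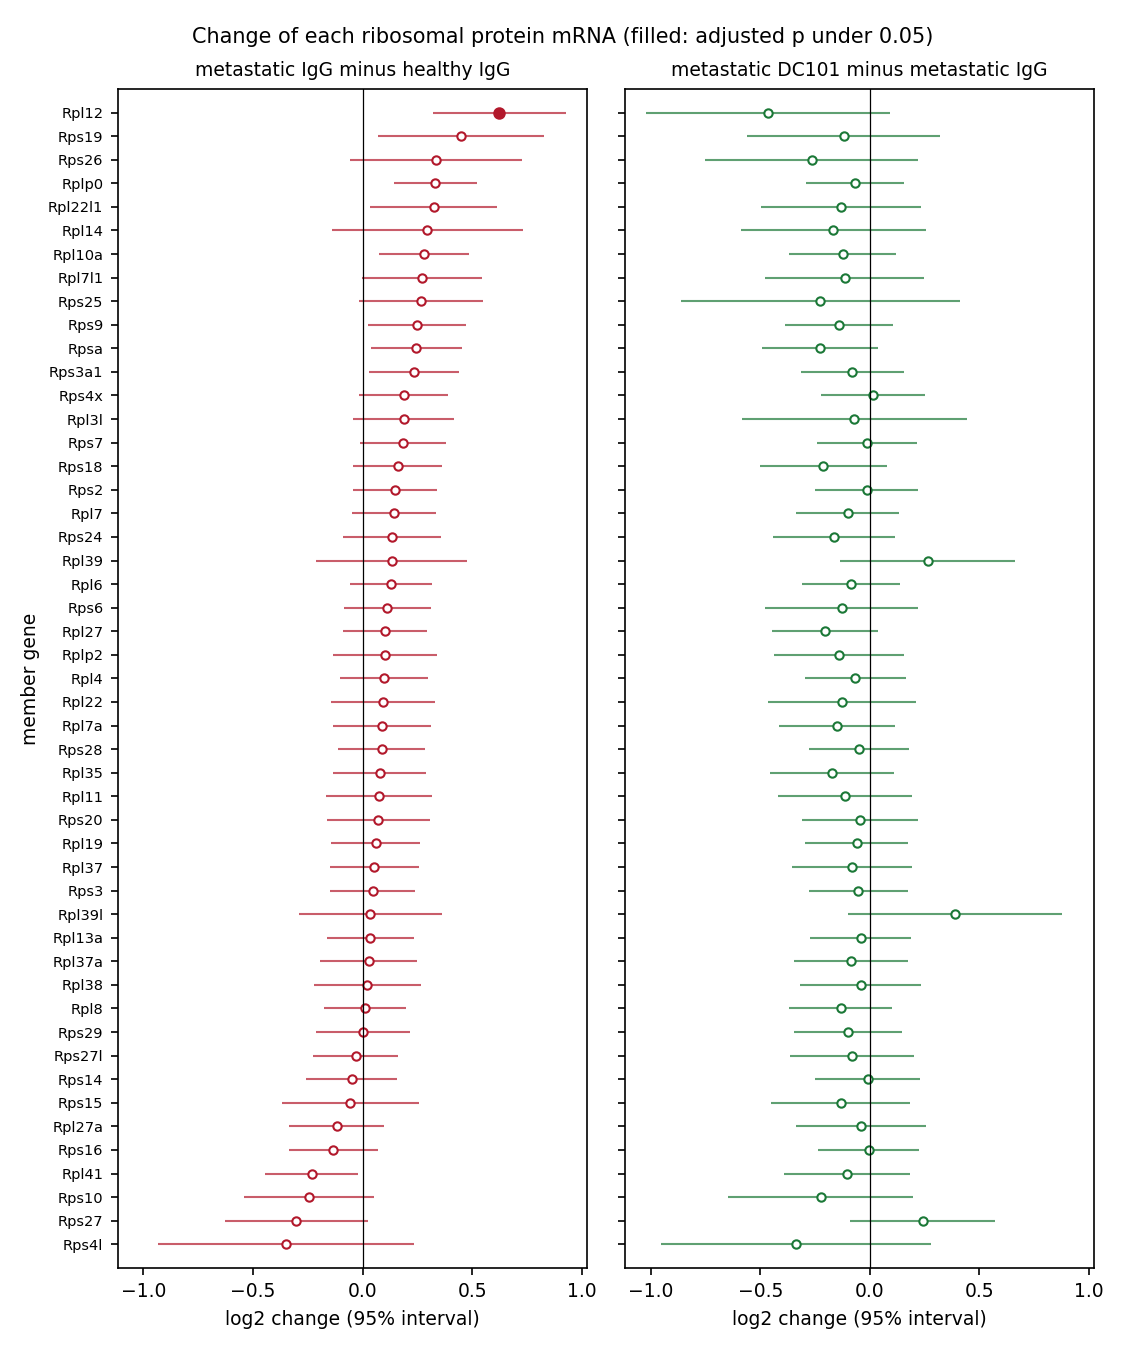
Log2 change of each of the 49 members, ordered by the change in metastasis, for metastatic IgG minus healthy IgG (left) and metastatic DC101 minus metastatic IgG (right), with the 95% interval of the limma fit as a line and filled points at adjusted p under 0.05. Points lie mostly right of 0 on the left (40 of 49) and left of 0 on the right (45 of 49), and 1 point is filled.

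The 6 paralogs did not follow one pattern. Rpl22l1, a paralog of the RNA-binding protein Rpl22, had 10.65, 10.23 and 10.47 in metastatic IgG, against 10.19, 10.12 and 10.08 in healthy IgG, a difference of 0.32 ± 0.12 with an adjusted p of 0.19 by limma. Rpl22 itself differed by 0.09 ± 0.10. Rpl7l1, a paralog of Rpl7, differed by 0.27 ± 0.12, and Rpl3l, known from striated muscle, by 0.19 ± 0.10 at a level of 7.42. Rps27l, a p53-inducible paralog of Rps27, differed by -0.03 ± 0.08, and Rpl39l by 0.04 ± 0.14. The sign for Rpl39l and for Rpl39 turned when 1 array was left out.

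Rps4l, an autosomal paralog on chromosome 6 of the X-linked Rps4x, had 10.62, 11.44 and 10.49 in metastatic IgG and 11.22, 11.35 and 11.04 in healthy IgG, with metastatic IgG replicate 2 above all healthy arrays. The difference was -0.35 ± 0.25. Rps4x had 13.68, 13.73 and 13.57 in metastatic IgG and 13.47, 13.48 and 13.47 in healthy IgG, a difference of 0.19 ± 0.09. The 2 genes thus had opposite signs, and neither passed the test.

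**Figure D4:**
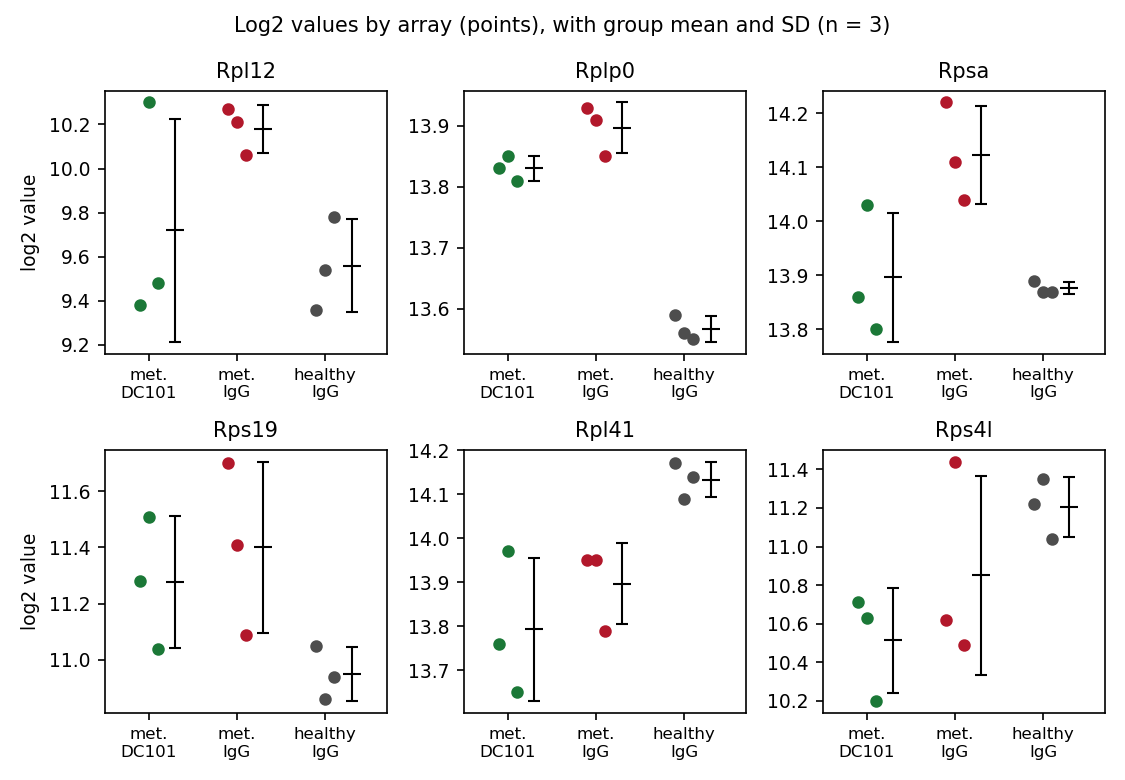
Log2 values of 6 members on each of the 9 arrays (points, replicates 1 to 3 from left to right) with the group mean and SD (n = 3) beside them, each panel on its own y axis. Rplp0 separates both metastatic groups from healthy IgG. Rpl12 on DC101 replicate 2 (10.30) sits with the metastatic IgG arrays while the other 2 DC101 arrays (9.38 and 9.48) do not. Rps4l has its lowest group mean in DC101 (10.51, against 10.85 in metastatic IgG), with overlap between those 2 groups.

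The second comparison asked what VEGFR2 blockade did to these mRNAs in metastatic lungs. No member was called, as was true of all 18193 genes (0.00%), and no member reached an unadjusted p under 0.05 (limma), against 6.65% of all genes. The sign was again shared by most: 45 of 49 members were lower on average in metastatic DC101 (91.8%, against 54.6% of all genes), with a median log2 change of -0.10, against -0.02 for all genes. Groups did not overlap for 6 members (12.2%, against 12.4% of all genes), 0 of them higher (against 5.40%) and 6 lower in DC101 (against 6.95%). Markers of other cells differed in the same comparison, with 8 of 10 lung epithelial markers (median 0.42), 6 of 6 erythrocyte and platelet markers (median 0.20) and 7 of 9 fibroblast and mural markers (median 0.16) above 0 and none called, and their part in the members' values was not tested. The members' median depended on single arrays. It was -0.18 without DC101 replicate 2, -0.05 without DC101 replicate 3 and -0.05 without metastatic IgG replicate 1.

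Rpl12 had the lowest change. Its values were 9.38, 10.30 and 9.48 in metastatic DC101, against 10.27, 10.21 and 10.06 in metastatic IgG, so 2 DC101 arrays were below the IgG arrays and 1 was above them. The change was -0.46 ± 0.24 with an adjusted p of 0.762 by limma, and the 95% interval was -1.02 to 0.09. Without DC101 replicate 2 the change was -0.75 (adjusted p of 0.327 by limma), and without DC101 replicate 1 it was -0.29. The brighter probe sets that list Rpl12 with other symbols differed by -0.22 (1416026_a_at) and -0.20 (1435725_x_at). Rpsa had 13.86, 14.03 and 13.80 in metastatic DC101 and 14.22, 14.11 and 14.04 in metastatic IgG, a difference of -0.23 ± 0.11 without overlap. Rplp0 differed by -0.07 ± 0.10, Rps4l by -0.34 ± 0.26 and Rps26 by -0.27 ± 0.21.

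Rpl39l, Rpl39, Rps27 and Rps4x were higher on average in metastatic DC101. Rpl39l had 8.00, 7.51 and 7.15 in metastatic DC101 and 7.13, 7.29 and 7.08 in metastatic IgG, a difference of 0.39 ± 0.21 that came mainly from DC101 replicate 1. Rpl39 differed by 0.26 ± 0.17 and Rps27 by 0.24 ± 0.14, and both overlapped between groups. Brighter probe sets that list Rpl39 or Rps27 with another symbol had the other sign. They differed by -0.02 for Rpl39 (1450840_a_at, level 12.55) and by -0.14 for Rps27 (1415716_a_at, level 12.58). The 95% interval lay within 0.5 of 0 for 37 of the 49 members, against 10373 of all 18193 genes.

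The third comparison set DC101-treated metastatic lungs against healthy lungs, and it shares arrays with the other comparisons. No member was called, against 2.42% of all genes (1.58% higher and 0.835% lower), and 5 members reached an unadjusted p under 0.05 (10.2%, against 17.0% of all genes). The members were split, with 23 above 0 (against 43.1% of all genes), 26 below (against 56.9%) and a median log2 change of -0.01, against -0.04 for all genes. Groups did not overlap for 12 members (24.5%, against 23.1%), 7 higher (against 9.44%) and 5 lower in DC101 (against 13.6%). Rplp0 had 13.83, 13.85 and 13.81 in metastatic DC101, against 13.59, 13.56 and 13.55 in healthy IgG, with no overlap and a difference of 0.27 ± 0.09 (adjusted p of 0.209 by limma). Rps4l had 10.71, 10.63 and 10.20 in metastatic DC101, against 11.22, 11.35 and 11.04 in healthy IgG, without overlap. Its difference of -0.69 ± 0.16 had the lowest adjusted p of the members, 0.0892 by limma.

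At the ends of the range against healthy lungs, Rpl39l had the highest change, with 8.00, 7.51 and 7.15 in metastatic DC101 and 7.39, 7.09 and 6.91 in healthy IgG, a difference of 0.43 ± 0.23 with overlap between groups. Rpl39, Rps10 and Rpl41 followed. Rpl39 had 9.44, 9.47 and 9.08 in metastatic DC101, against 8.88, 9.05 and 8.86 in healthy IgG, a difference of 0.40 ± 0.14. The brighter probe set that lists Rpl39 with another symbol (1450840_a_at) differed by 0.08. Rps10 had 11.43, 12.00 and 11.52 in metastatic DC101, against 12.21, 12.02 and 12.12 in healthy IgG, a difference of -0.47 ± 0.16. Rpl41 had 13.76, 13.97 and 13.65 in metastatic DC101, against 14.17, 14.09 and 14.14 in healthy IgG, a difference of -0.34 ± 0.12. Rpl39, Rps10 and Rpl41 did not overlap between groups, and none of the 4 passed the test.

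Probe sets of 1 gene did not always move alike. The 49 members had 105 probe sets that name them alone, and in a fit with every named probe set as its own row, 4 of the 105 were called higher and 3 lower in metastatic IgG than in healthy IgG, against 2.95% and 1.76% of all 35877 probe sets (4.72% in all). The largest change was in Rpl27a, a large-subunit protein. Probe set 1419799_at had 11.92, 12.26 and 12.05 in metastatic DC101, 11.56, 11.90 and 11.76 in metastatic IgG and 7.17, 7.20 and 7.24 in healthy IgG. It was higher in metastatic IgG than in healthy IgG by 4.54 (23.3-fold, adjusted p of 6.71e-05 by limma), the largest increase of the 34945 probe sets that name 1 gene. Probe set 1437729_at of the same gene, which stands for Rpl27a above because it is brighter, had 12.88, 13.14 and 12.79 in metastatic DC101, 13.08, 12.94 and 12.91 in metastatic IgG and 13.16, 13.02 and 13.10 in healthy IgG, a difference of -0.12. Probe set 1426661_at (level 12.39), shared by Rpl27a and 4 other symbols, also had a difference below 0, of -0.18. Which of the probe sets reports the Rpl27a transcript was not tested.

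Rpl41 and Rpl7 showed smaller splits. For Rpl41, probe set 1433530_at had 10.33, 10.02 and 10.31 in metastatic DC101, 10.26, 9.97 and 10.27 in metastatic IgG and 11.19, 10.98 and 10.95 in healthy IgG. It fell by 0.88 in metastatic IgG, with an adjusted p of 0.0147 by limma, and 1454639_x_at fell by 0.79, with an adjusted p of 0.015, while 1422623_x_at differed by -0.09. All 4 probe sets of Rpl41 thus had the same sign. For Rpl7, 1426163_x_at had 12.27, 12.34 and 12.48 in metastatic DC101, 11.78, 12.09 and 12.11 in metastatic IgG and 11.26, 11.05 and 11.03 in healthy IgG, a rise of 0.88 in metastatic IgG (adjusted p of 0.0152 by limma), against differences of 0.14 and 0.25 for the brighter 2. With the mean of all probe sets per gene, Rpl12, Rpl27a and Rpl7 were called higher and Rpl41 lower in metastatic IgG, against 3.94% and 2.99% of all genes (6.93% in all). With only plain _at probe sets kept (types _a_at, _s_at and _x_at left out), 26 members were left. Of these, Rpl12 and Rps24 were called higher and Rpl41 lower, against 3.52% and 2.31% of all genes (5.83% in all).

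**Figure D5:**
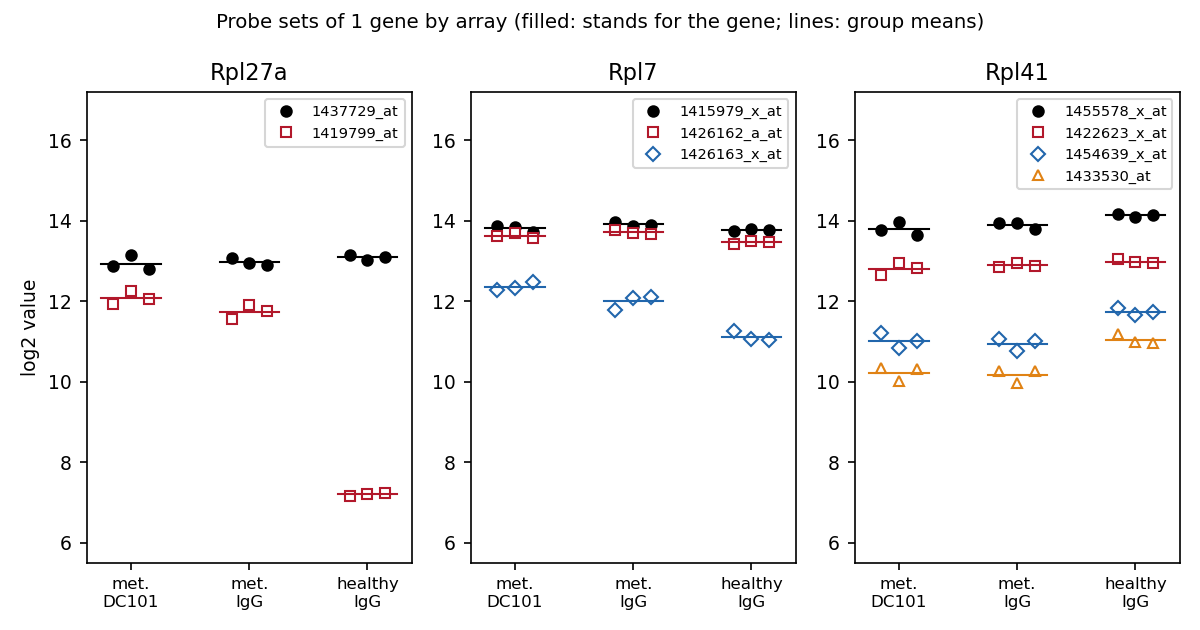
Log2 values of every probe set that names Rpl27a, Rpl7 or Rpl41 alone, on each array (replicates 1 to 3 from left to right in each group), with lines at group means and filled symbols for the probe set that stands for the gene. Rpl27a probe set 1419799_at is near 12 in both metastatic groups and near 7.2 in healthy IgG, while 1437729_at stays between 12.79 and 13.16.

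Probe sets that list a ribosomal protein gene with other symbols gave a like picture. Of 110 such probe sets, 90 were above 0 in metastatic IgG against healthy IgG. Their median change was 0.10, against -0.02 for all 35877 probe sets, with 1 called higher and 0 lower (against 2.95% and 1.76%). In metastatic DC101 against metastatic IgG 90 were below 0, with a median of -0.10, against -0.01 for all probe sets. They share arrays with the members and many share sequence with them. Of the 43 ribosomal protein symbols on them, 15 are members, and 1 gene can have several of these probe sets, so this is no separate evidence. Fau, which encodes a small-subunit protein fused to a ubiquitin-like domain and is not named by the symbol rule, differed by 0.03 ± 0.10 in metastatic IgG against healthy IgG and by -0.19 ± 0.12 in metastatic DC101 against metastatic IgG.

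Genes that work beside the ribosome were read in the same fits. Of 76 mitochondrial ribosomal proteins, 2 were called higher in metastatic IgG than in healthy IgG (2.63%, against 3.93% of all genes) and the median change was -0.04, with 31 above 0 (40.8%, against 45.1%). A list of translation factors and other genes known as or likely to be TOP mRNAs had 21 measured members. Of these, 2 were called higher (9.52%, against 3.93% of all genes) and 18 were above 0 (85.7%, against 45.1%), with a median of 0.18. The called ones are not translation factors: Npm1, a nucleolar chaperone of ribosome assembly, which rose by 0.39 ± 0.09 (adjusted p of 0.0456 by limma), and Nap1l1, a histone chaperone, which rose by 0.50 ± 0.08 (adjusted p of 0.0142 by limma). In metastatic DC101 against metastatic IgG no gene of either list was called, and the medians were -0.13 for mitochondrial ribosomal proteins and -0.09 for the TOP list.

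Of 15 measured genes that control ribosome synthesis, 3 were called higher in metastatic IgG than in healthy IgG, against 3.93% of all genes. Myc had 10.57, 10.67 and 10.34 in metastatic IgG, against 8.58, 8.54 and 8.30 in healthy IgG, a rise of 2.05 ± 0.13 (adjusted p of 0.000486 by limma). Mycn, its paralog, rose by 4.28 ± 0.14 (adjusted p of 7.76e-05 by limma) and Eif4ebp1, which restrains cap-dependent translation downstream of mTOR, by 0.61 ± 0.09 (adjusted p of 0.0098 by limma). Against these rises the ribosomal proteins' median change was 0.10. Mtor differed by -0.04 ± 0.10 and Larp1, which binds TOP mRNAs, by 0.11 ± 0.09. In metastatic DC101, Myc was at 9.79, 10.38 and 10.11, a difference of -0.43 ± 0.17 from metastatic IgG that was not called (adjusted p of 0.741 by limma). Mycn had the other sign, with 12.12, 12.15 and 12.37 in metastatic DC101 and 11.49, 11.80 and 11.95 in metastatic IgG, a difference of 0.47 ± 0.15 without overlap that was not called either.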

How the data were processed

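Affymetrix mouse expression arrays were hybridized with RNA amplified from 500 pg of total RNA by a 3′ in vitro transcription kit. The authors normalized the raw files by robust multiarray averaging (RMA) in Chipster, and the deposited values are taken as log2 because RMA returns log2; the log base is not stated in the table. RMA equalizes arrays, so a change of total RNA cannot be seen. Array number limits the precision. Probe sets with 1 gene symbol were kept, and the brightest over the 9 arrays stood for a gene, with no filter on dim genes. Limma 3.58.1 (R 4.3.3; lmFit, eBayes, two-sided) was fitted to the 6 arrays of each pair of groups. A call needed an adjusted p under 0.05, by Benjamini-Hochberg over 18193 genes. Fits were tested on simulated data. Named members were those called, the 3 highest and 3 lowest changes per comparison, the paralogs with their core members, the stalk proteins, Rpsa, Fau, and the 3 highest and 3 lowest levels. Other genes were named after their values were seen. The symbol rule that picked the members used no measured value. The choice of this gene family and of the lists was made with earlier results of these data known. Promoter sequences came from RefSeq GRCm38.p6. Proteins were not used here.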

Additional observations from a re-analysis of the deposited data

Results flagged for a closer look

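Probe sets that stood for no gene in the comparisons were examined in a fit over all 35877 named probe sets, and those of ribosomal proteins with a limma adjusted p under 0.05 are given here. In metastatic IgG against healthy IgG, Rpl27a probe set 1419799_at changed by 4.54, Rpl7 probe set 1426163_x_at by 0.88 and Rps24 probe set 1455195_at by 0.70 on the log2 scale. Rps24 encodes a small-subunit protein, and that probe set had 9.74, 9.69 and 9.47 in metastatic IgG against 8.81, 9.01 and 8.98 in healthy IgG. Lower were Rpl41 probe sets 1433530_at (-0.88) and 1454639_x_at (-0.79) and Rps6 probe set 1453466_at (-0.84), where Rps6 encodes the small-subunit protein phosphorylated by S6 kinases. The Rps6 probe set had 7.12, 7.12 and 7.05 in metastatic IgG against 7.71, 8.24 and 7.88 in healthy IgG, close to the dim end of the scale, while the brighter probe set of that gene differed by 0.11.

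Probe set 1459002_at, shared by Rpl21 and 1 other symbol, had 10.29, 10.86 and 10.57 in metastatic DC101, 9.77, 10.11 and 9.88 in metastatic IgG and 6.53, 6.56 and 6.31 in healthy IgG, a change of 3.45 for metastatic IgG against healthy IgG (adjusted p of 0.000254 by limma) and of 4.11 for metastatic DC101 against healthy IgG. In metastatic DC101 against healthy IgG, Rpl27a probe set 1419799_at changed by 4.87, Rpl7 probe set 1426163_x_at by 1.25 and Rpl41 probe set 1433530_at by -0.82.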

How the results depend on the processing

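Single calls depended on the settings, while the member medians of the first 2 comparisons kept their direction under every setting run. In metastatic IgG against healthy IgG, the count called higher was 1 in the comparison above (against 3.93% of all genes). It was 3 when all probe sets of a gene were averaged (against 3.94%). It was 2 with only plain _at probe sets (26 members left, against 3.52%). With dim genes left out, 2 of 46 were called higher (against 769 of 13645 genes). An intensity trend gave 11 of 49 (against 5.41%). With every probe set as its own row, an alternative chosen after seeing the data, it was 4 of 105 (against 2.95%). It was 0 to 1 when 1 array was left out (against 382 to 516 of 18193 genes). The count called lower was 1 for averaged probe sets, 1 with only plain probe sets, 1 with the trend and 3 with every probe set. Over all features these shares were 2.99%, 2.31%, 4.36% and 1.76%. In metastatic DC101 against healthy IgG, 2, 1 and 2 were called higher (mean of probe sets, trend, every probe set), against 1.61%, 2.08% and 0.998% of all features. Under each of these 1 was called lower (against 0.934%, 1.21% and 0.321%), as was 1 with only plain probe sets (against 0.693%). With only plain probe sets the member medians were 0.17 in metastatic IgG against healthy IgG and 0.079 in metastatic DC101 against healthy IgG, with 26 members. With 1 array left out the medians were 0.08 to 0.13 in metastatic IgG against healthy IgG, -0.18 to -0.05 in metastatic DC101 against metastatic IgG and -0.08 to 0.03 in metastatic DC101 against healthy IgG. No member was called in metastatic DC101 against metastatic IgG under any setting run.

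With only plain probe sets the sign turned for Rps10 (0.39 in metastatic IgG against healthy IgG) and Rpl41 (0.055 in metastatic DC101 against metastatic IgG). With the mean of all probe sets it turned for Rpl7 (0.066 in metastatic DC101 against metastatic IgG). In metastatic IgG against healthy IgG it turned for Rpl39 without metastatic IgG replicate 1 (-0.016, with a range of -0.016 to 0.23 over arrays left out). In the same comparison it turned for Rpl39l without metastatic IgG replicate 2 (-0.024) and without healthy IgG replicate 3 (-0.074, with a range of -0.074 to 0.16). The cause was not tested. Rplp0 was called in metastatic IgG against healthy IgG with all 9 arrays in 1 fit (adjusted p of 0.047 by limma) and Rpl12 was not (0.164). Replicate numbers did not pair the arrays, since same-numbered arrays deviated with correlations of -0.05 to 0.08; with the number as a block 0 members were called higher in metastatic IgG against healthy IgG and Rpl12 had an adjusted p of 0.0996 by limma, and no other call of a member changed. Cyclic loess and centring on the 75th percentile gave medians of 0.013 and 0.017 in metastatic DC101 against healthy IgG, and averaged probe sets 0.025, where the value above was -0.0054.

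Levels near the top of the scale and the small number of arrays limit what can be seen, and a p that missed the threshold does not show that values were equal.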
